A study of Mus musculus with 16 samples.

Results

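The 10 genes described here, Nr4a1, Nr4a2, Nr4a3, Egr1, Egr2, Egr3, Cd69, Rgs16, Irf4 and Nfatc1, are response genes of T cell receptor activation. They were taken by symbol from the 32285 genes counted in all 8 single-cell libraries of immune cells from mouse B16 melanomas, and followed in 4 gates: CD8 T, CD4 T, regulatory T and natural killer (NK) cells. C57BL/6J mice carried tumours grown under the skin from 1000000 Bro4.1 B16 cells that either lacked B2m (B2m-null) or were controls. Each mouse received 100 µg of anti-CD40 antibody or of a rat IgG2a isotype antibody into the peritoneal cavity on days 6, 9 and 12, and tumours were taken on day 14. The groups are named by tumour and antibody below, as control isotype and control CD40 or as B2m-null isotype and B2m-null CD40. All mice shared the host strain, the tumour line, the bead selection for CD45 and the digestion with collagenase and DNase. B2m loss was taken to lie in the implanted cells, as the design text has it, although the sample labels put the genotype on the mouse.

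Signals from the T cell receptor reach these genes within minutes to hours, through calcium and the NFAT factors and through the Ras and ERK kinases. Nr4a1, Nr4a2 and Nr4a3 encode orphan nuclear receptors that are induced by receptor signalling and are known from exhausted and tolerant T cells. Egr1, Egr2 and Egr3 encode zinc finger factors downstream of ERK, of which Egr2 and Egr3 are known to restrain T cell activation. Cd69 encodes an early surface marker that holds lymphocytes in tissue by binding the S1P1 receptor, and it also responds to interferon. Rgs16 encodes a regulator that shortens signalling by G protein-coupled receptors, Irf4 a factor that scales with receptor signal strength, and Nfatc1 an NFAT family member that is induced by its own pathway. B2m encodes beta-2-microglobulin, without which class I molecules do not reach the surface of a tumour cell to present antigen to CD8 T cells. CD40 is a receptor of dendritic cells, macrophages and B cells.

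Antibody hashtags separated the mice of each pool. Of 116552 barcodes, 15074 (12.9%) were hashtag doublets and were left out, and 72308 passed the filters and were assigned to 16 mice. Control tumours gave 5 isotype and 2 CD40 mice, and B2m-null tumours gave 5 isotype and 4 CD40 mice. The 8 lanes held 45985739 to 99264875 unique molecular identifiers (UMIs, counts of distinct captured transcripts), and lanes shared 41 to 92 barcodes pairwise. The 2 control CD40 lanes were technical runs of 1 pool, so that group rested on 2 mice of 1 pool. Per the labels each pool had 3 hashtags, but 6 of the 8 files held 2. B2m-null isotype replicate 1 stood apart, with 23.9% of its barcodes assigned to a mouse against 64.7% to 89.0% in the other lanes. Mice of a pool shared a lane, so p-values below measure the spread between mice, part of which is common to a pool.

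A cell entered a gate by its own UMIs: Cd3d, Cd3e or Cd3g with Cd8a or Cd8b1 for CD8 T cells, Cd3 genes with Cd4 for CD4 T cells, Foxp3 for regulatory T cells, and Ncr1 or Klrb1c without Cd3 genes for NK cells. Cells with 2% or more of UMIs in 11 myeloid and antigen-presentation genes were left out. Levels are counts per 1000000 UMIs (CPM) summed per mouse and gate, in mice with at least 20 cells. The CD8 T gate held 13517 cells assigned to mice and 15 usable mice, the CD4 T gate 1175 cells and 11 mice, the regulatory T gate 445 cells and 9 mice, and the NK gate 1882 cells and 14 mice. The genes that the gates read were present by construction. Mean Cd8a was 581 CPM in the CD8 T gate and Cd4 was 443 CPM in the CD4 T gate. Foxp3 was 287 CPM in the regulatory T gate and Ncr1 was 381 CPM in the NK gate. The macrophage gene Lyz2 stood at 804 CPM in the CD8 T gate against 9861 CPM in a myeloid comparison gate. It is among the 11 genes that set both gates, so the gating itself widens this difference. The B cell gene Cd79a stood at 7.7 CPM in the CD8 T gate.

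Coordinates are those of mouse build GRCm38 (mm10). The nuclear receptor genes are Nr4a1 (ENSMUSG00000023034, chr15:101254269-101274795, plus strand), Nr4a2 (ENSMUSG00000026826, chr2:57106830-57124003, minus strand) and Nr4a3 (ENSMUSG00000028341, chr4:48045153-48086447, plus strand). The Egr genes are Egr1 (ENSMUSG00000038418), Egr2 (ENSMUSG00000037868, chr10:67535475-67542188, plus strand) and Egr3 (ENSMUSG00000033730, chr14:70077203-70082614, plus strand). The others are Cd69 (ENSMUSG00000030156, chr6:129267325-129275436, minus strand), Rgs16 (ENSMUSG00000026475, chr1:153740349-153745468, plus strand), Irf4 (ENSMUSG00000021356, chr13:30749226-30766976, plus strand) and Nfatc1 (ENSMUSG00000033016).

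The 250 bases upstream of the RefSeq start (GRCm38.p6) are shown for the Nr4a genes and for Rgs16, the genes on which the CD8 T cell results turn. They read 5′ to 3′ on the strand of the gene, at chr15:101266596-101266845 (plus) for Nr4a1, chr2:57124004-57124253 (minus) for Nr4a2, chr4:48045055-48045304 (plus) for Nr4a3 and chr1:153740103-153740352 (plus) for Rgs16. Capitals mark TGACG, the core of the cAMP response element (CRE) bound by CREB family factors, or CGTCA, the same core on the other strand. The Nr4a1 and Nr4a3 windows lie within the span of the gene given above, in whole or in part, because that annotation starts earlier than RefSeq.
Nr4a1: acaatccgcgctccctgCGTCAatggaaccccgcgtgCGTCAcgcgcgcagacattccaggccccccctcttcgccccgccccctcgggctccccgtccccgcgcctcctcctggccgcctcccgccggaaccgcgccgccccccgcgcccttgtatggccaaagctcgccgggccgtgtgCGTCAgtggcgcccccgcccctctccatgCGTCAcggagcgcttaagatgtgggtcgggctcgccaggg
Nr4a2: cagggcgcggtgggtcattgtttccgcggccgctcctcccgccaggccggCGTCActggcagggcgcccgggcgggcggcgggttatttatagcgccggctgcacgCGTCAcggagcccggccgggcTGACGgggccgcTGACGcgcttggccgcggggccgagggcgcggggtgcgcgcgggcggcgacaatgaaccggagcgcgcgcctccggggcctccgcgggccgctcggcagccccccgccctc
Nr4a3: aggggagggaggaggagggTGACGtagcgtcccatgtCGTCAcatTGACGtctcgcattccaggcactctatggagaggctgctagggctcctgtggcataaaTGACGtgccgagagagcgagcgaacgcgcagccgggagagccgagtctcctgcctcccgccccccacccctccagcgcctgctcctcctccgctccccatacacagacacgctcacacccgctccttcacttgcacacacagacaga
Rgs16: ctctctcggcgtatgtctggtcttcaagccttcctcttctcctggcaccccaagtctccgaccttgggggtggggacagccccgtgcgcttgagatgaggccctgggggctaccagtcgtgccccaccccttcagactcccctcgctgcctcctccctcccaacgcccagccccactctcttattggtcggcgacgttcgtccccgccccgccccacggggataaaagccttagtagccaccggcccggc
The Nr4a1, Nr4a2 and Nr4a3 windows each held 4 CRE cores, and the Rgs16 and Irf4 windows held 0. Of the windows listed for Egr2, 3 held 2 cores and the others held 0. These 3 windows overlap and largely repeat the same bases. Among 32851 windows of 250 bases, 17.8% held at least 1 core on either strand, and 45 windows (0.137%) held 4 or more, a limit chosen after the Nr4a windows had been read. The full CRE TGACGTCA, present in 1.55% of all windows, was in no window of these genes, and neither was the AP-1 site TGANTCA (6.75% of windows) nor the NBRE AAAGGTCA to which NR4A proteins bind (1.34%). The EGR site GCGNGGGCG, in 4.7% of windows, occurred 1 time upstream of Nr4a1 and 1 time upstream of Nr4a2, and the NFAT core GGAAA, in 55.6% of windows, 1 time upstream of Nr4a2 and in 4 windows of Egr2. The CArG box (CC, a run of A or T, then GG), in 1.47% of windows, occurred in the same 4 windows of Egr2. Of these, 3 are the overlapping windows. These matches describe the letters of the windows and not binding.

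In CD8 T cells from B2m-null tumours, anti-CD40 was accompanied by lower Nr4a3 and Rgs16, while the means of Cd69 and Egr1 were at or above those under isotype. Nr4a3 fell 2.52-fold and Rgs16 fell 2.83-fold. Of the 10 genes, 2 passed the test in this comparison, both lower, where 6.04% of 10852 genes passed in either direction and 2.41% were lower (edgeR's quasi-likelihood test, Benjamini-Hochberg adjusted p under 0.05). Their median log2 fold change was -0.23 against 0.00 over all genes. DESeq2 called 3 of them and limma-voom, with the pool as a random block, called 1.

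Rgs16 in the CD8 T gate measured 340 CPM in B2m-null isotype mouse 1 and 101, 104 and 86.3 CPM in mice 3, 4 and 5. In the 4 B2m-null CD40 mice it measured 41.1, 38.8, 34.6 and 59.7 CPM. Every B2m-null CD40 mouse lay below every B2m-null isotype mouse, and mouse 1 stood far above the rest of its group. The log2 fold change was -1.50 ± 0.40 (SE; adjusted p = 0.0444, edgeR). Without mouse 1, which had 44 gated cells and 53 Rgs16 UMIs, it was -1.01 with an adjusted p of 0.068, and in 16 of 21 fits that left out 1 mouse or 1 pool the call was lost. It was kept without control isotype mouse 1, control CD40 mouse 1 or 2, B2m-null isotype mouse 4 or the B2m-null isotype replicate 2 pool. It was also lost with limma-voom (adjusted p = 0.164), with each pool as 1 unit (0.111), with gates of 2 UMIs (0.057), with thinned cells (0.068) and with at least 50 cells per mouse (0.131). In control tumours Rgs16 measured 254, 140, 153, 201 and 199 CPM under isotype and 175 and 86.0 CPM under anti-CD40, with overlapping groups (log2 fold change -0.53 ± 0.41, adjusted p = 0.41).

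Nr4a3 measured 89.8, 50.6, 58.3 and 53.4 CPM in the B2m-null isotype mice 1, 3, 4 and 5, and 42.3, 15.4, 17.0 and 22.1 CPM in the 4 B2m-null CD40 mice. The groups did not overlap. The log2 fold change was -1.34 ± 0.32 (adjusted p = 0.0221, edgeR). It was negative in all 33 alternative fits, between -1.56 and -1.17, and passed in 23 of them. It missed the threshold when each pool was 1 unit (-1.33, adjusted p = 0.15), when cells were thinned to equal depth (adjusted p = 0.089), with at least 50 cells per mouse (adjusted p = 0.095), and in 7 of 21 fits that left out 1 mouse or 1 pool. These 7 were the fits without B2m-null isotype mouse 1 (0.054) or 4 (0.061), without B2m-null CD40 mouse 3 (0.074) or 4 (0.057), and without either B2m-null isotype pool or the B2m-null CD40 replicate 2 pool. In control tumours Nr4a3 measured 81.0, 81.6, 45.8, 43.9 and 47.8 CPM under isotype and 53.3 and 40.8 CPM under anti-CD40, again overlapping (log2 fold change -0.34 ± 0.30, adjusted p = 0.47).

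**Figure D1:**
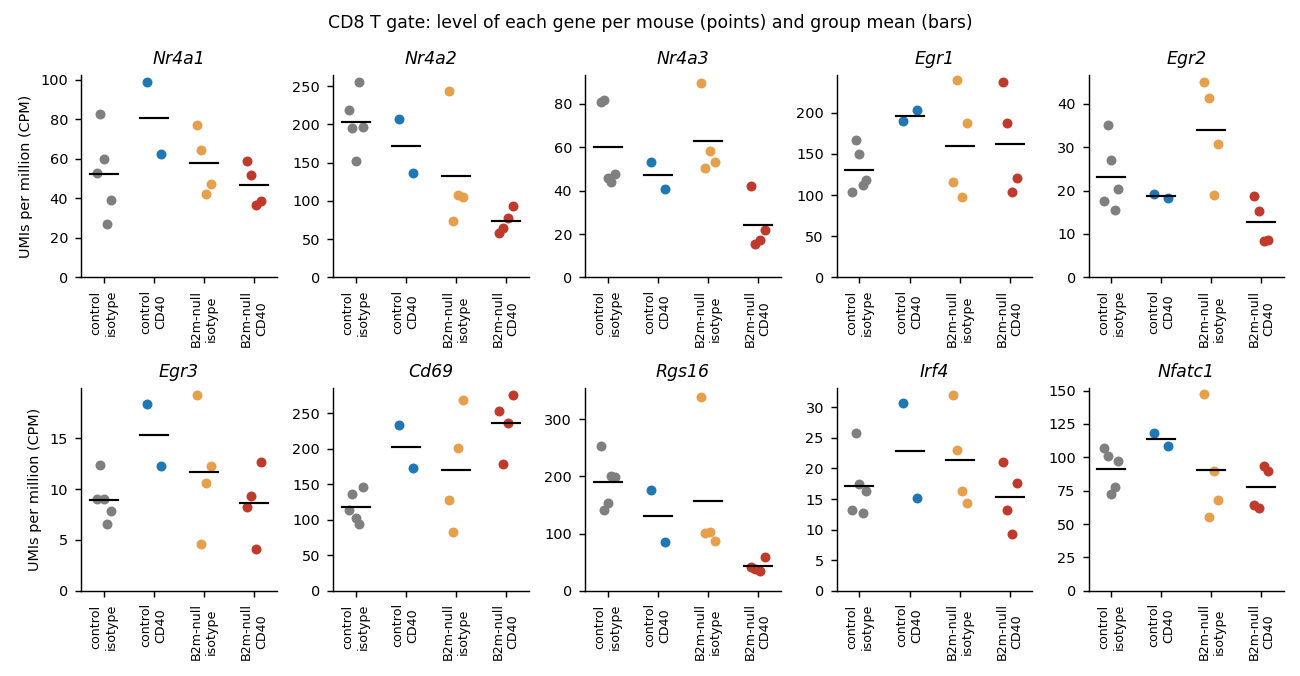
Level of each of the 10 genes in the CD8 T gate, in CPM (vertical axis), with 1 point per mouse in the 4 groups and bars at the group means. The B2m-null CD40 mice lie at 15.4 to 42.3 CPM for Nr4a3 and 34.6 to 59.7 CPM for Rgs16, below the B2m-null isotype mice, and for Cd69 they lie at 179 to 276 CPM.

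Egr2, which like Egr3 restrains activation, measured 44.9, 41.4, 19.1 and 30.8 CPM in the B2m-null isotype mice and 18.8, 15.2, 8.44 and 8.53 CPM in the B2m-null CD40 mice. The groups did not overlap, but the test was narrowly missed (log2 fold change -1.12 ± 0.34, adjusted p = 0.0579, edgeR). Over 33 alternatives the change lay between -1.66 and -0.67 and passed in 7, none of them with a stricter myeloid limit. Nr4a2 measured 244, 73.6, 108 and 105 CPM under isotype and 58.7, 64.6, 78.0 and 93.0 CPM under anti-CD40, with overlap (-0.56 ± 0.27, adjusted p = 0.24). The Nr4a1 mean was 57.7 ± 15.9 CPM (SD, n = 4) under isotype and 46.5 ± 10.4 CPM (SD, n = 4) under anti-CD40 in B2m-null tumours. Cd69 measured 128, 82.8, 201 and 269 CPM under isotype and 252, 179, 236 and 276 CPM under anti-CD40 (0.51 ± 0.27, adjusted p = 0.27). Egr1 averaged 160 ± 65.5 CPM (SD, n = 4) and 162 ± 61.7 CPM (SD, n = 4), with a log2 fold change of 0.17 (adjusted p = 0.82, edgeR). It passed as higher in 1 of 33 alternatives, with gates of 2 UMIs (adjusted p = 0.031), and kept its sign in 29. The 3 nuclear receptor genes thus gave unequal values in the same cells, and the difference between them was not tested.

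In control tumours, 0 of the 10 genes passed the edgeR test for anti-CD40 against isotype in CD8 T cells, where 19.9% of the 10852 genes did. At an unadjusted p under 0.05 there were 3, DESeq2 called 1 and limma-voom 0. The log2 fold change was above 0 for 6 genes and below 0 for 4, with a median of 0.40 against -0.01 over all genes. Cd69 came nearest: it measured 113, 136, 102, 94.4 and 146 CPM under isotype and 233 and 172 CPM under anti-CD40, with no overlap (0.80 ± 0.29, adjusted p = 0.0599). Egr1 measured 104, 166, 150, 112 and 118 CPM under isotype and 190 and 203 CPM under anti-CD40, also without overlap (0.62 ± 0.30, adjusted p = 0.17). Nr4a1 measured 52.6, 82.6, 59.9, 26.9 and 39.3 CPM under isotype and 99.0 and 62.5 CPM under anti-CD40 (0.67 ± 0.29, adjusted p = 0.119). The Nr4a1 value of control CD40 mouse 2 was inside the isotype range. Both CD40 comparisons come from the same fit, which shares its estimate of spread, but they use different mice.

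**Figure D2:**
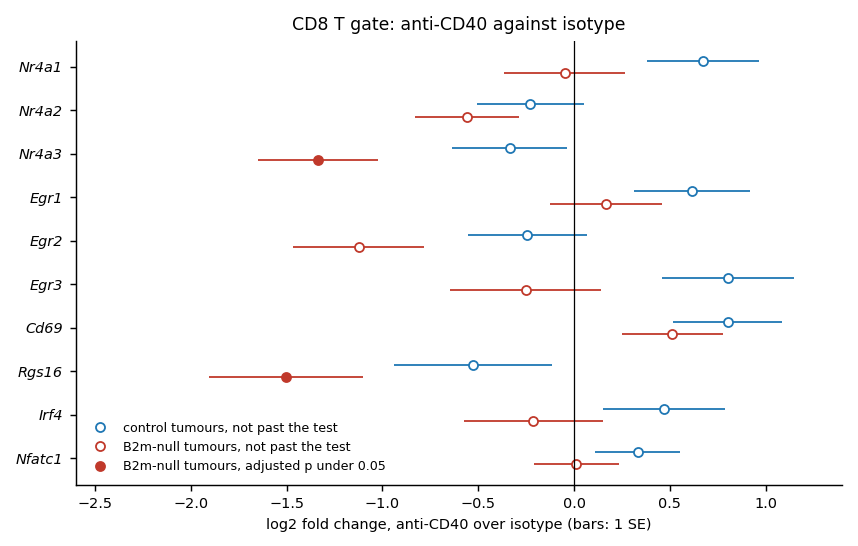
Log2 fold change of anti-CD40 over isotype in the CD8 T gate (horizontal axis, bars of 1 SE) for the 10 genes in control and B2m-null tumours, with filled points for an adjusted p under 0.05. Only Nr4a3 (-1.34) and Rgs16 (-1.50) in B2m-null tumours are filled, and every gene has its B2m-null point to the left of its control point.

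The anti-CD40 changes of Egr1 and Nr4a1 in the CD8 T gate moved with the limit on myeloid UMIs. Myeloid cells held Egr1 at 552 CPM on average in the comparison gate, against 155 CPM in the CD8 T gate, and Nr4a1 at 80.4 against 56.0 CPM. Egr2 stood at 62.0 against 22.7 CPM. CD8 T gate cells with over 0.5% myeloid UMIs made up 17.9% of the gate in control isotype, 11.9% in control CD40, 20.1% in B2m-null isotype and 8.76% in B2m-null CD40 mice. With the limit at 0.5%, which was chosen after the data had been seen, 3 of the 10 genes rose under anti-CD40 in control tumours, where 12.2% of genes did. These were Nr4a1 (log2 fold change 1.17, adjusted p = 0.0043), Egr1 (1.00, adjusted p = 0.0472) and Cd69 (0.85, adjusted p = 0.0073). The limit of 1% gave the same 3 genes. At 0.5% in B2m-null tumours, Nr4a3 was at -1.37 (adjusted p = 0.0425, edgeR), Rgs16 at -1.89 (adjusted p = 0.0266) and Egr1 at 1.36 (adjusted p = 0.085). The limits of 1% and 0.5% each left 3 of the 4 B2m-null isotype mice, so these values also reflect the loss of a mouse. The part of myeloid RNA in the Egr1, Egr2 and Nr4a1 values at the 2% limit was not tested.

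**Figure D3:**
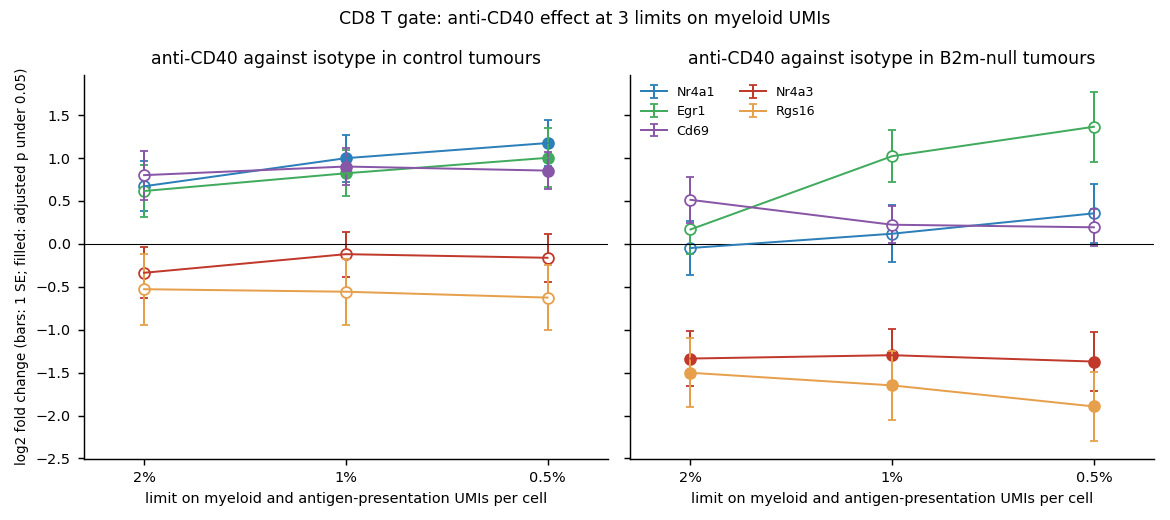
Log2 fold change of anti-CD40 over isotype in the CD8 T gate (vertical axis, bars of 1 SE) at limits of 2%, 1% and 0.5% on myeloid and antigen-presentation UMIs per cell, with filled points for an adjusted p under 0.05. Nr4a1, Egr1 and Cd69 pass in control tumours at 1% and 0.5%, and Nr4a3 and Rgs16 pass in B2m-null tumours at all 3 limits. The 1% and 0.5% limits leave 3 of the 4 B2m-null isotype mice.

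The tumour genotypes were compared under each antibody. Under isotype, 0 of the 10 genes passed in CD8 T cells, where 0.0737% of genes did (2 at an unadjusted p under 0.05, 0 by DESeq2, 0 by limma-voom). The lowest adjusted p was that of Nr4a2, which measured 218, 195, 152, 255 and 196 CPM in control isotype mice and 73.6 to 244 CPM in B2m-null isotype mice (-0.79 ± 0.26, adjusted p = 0.22). Under anti-CD40, 0 of 10 passed in edgeR, where 2.19% of genes did, with 5 at an unadjusted p under 0.05, 2 by DESeq2 and 2 by limma-voom. The log2 fold change was below 0 for 9 of 10, with a median of -0.66 against 0.00 over all genes. Nr4a2 measured 207 and 137 CPM in control CD40 mice against 58.7 to 93.0 CPM in B2m-null CD40 mice, without overlap (-1.12 ± 0.28, adjusted p = 0.0511). Rgs16, also without overlap, had a log2 fold change of -1.49 ± 0.41 (adjusted p = 0.0818), and Nr4a3 had -1.03 ± 0.31 (adjusted p = 0.095) with overlapping groups. At the 0.5% myeloid limit Nr4a2 (-1.17, adjusted p = 0.0357) and Nr4a3 (-1.17, adjusted p = 0.0375) passed as lower in B2m-null tumours, where 0.946% of genes did.

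The difference of the CD40 effects between the tumour genotypes was tested directly. None of the 10 genes passed in edgeR, where 4.72% of genes did, with 1 at an unadjusted p under 0.05, 0 by DESeq2 and 0 by limma-voom. All 10 differences were below 0, from -1.05 to -0.29 on the log2 scale, with adjusted p from 0.198 to 0.759. The effects of anti-CD40 on these genes are therefore not shown to differ between control and B2m-null tumours.

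The remaining members did not pass in CD8 T cells. Egr3 lay between 4.15 and 19.2 CPM across the 15 mice, Irf4 between 9.33 and 32.1 CPM and Nfatc1 between 55.2 and 147 CPM. Adjusted p was above 0.05 for each of the 3 in every comparison of groups. Egr3 was nearest in control tumours, at 9.00, 12.4, 9.02, 6.61 and 7.85 CPM under isotype and 18.4 and 12.3 CPM under anti-CD40 (0.80 ± 0.35, adjusted p = 0.111).

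The share of CD8 T gate cells with any UMI of a gene was read at equal depth, since the median UMIs per cell were 4303 and 1868 in control tumours under isotype and anti-CD40, and 3842 and 2590 in B2m-null tumours. After thinning to 1500 UMIs per cell, which dropped 14.3%, 39.7%, 11.5% and 20.02% of the cells, in the same order, a Rgs16 UMI was found in 22.6%, 13.7%, 15.9% and 5.41% of cells on average (44.5%, 16.4%, 34.0% and 10.1% before thinning). In myeloid cells of the comparison gate, with median depths of 3970 to 6088 UMIs, the thinned share for Rgs16 was at most 0.0674%. Cells with no UMI of any of the 10 genes made up 33.4 ± 3.88% (SD, n = 5), 27.2 ± 4.97% (SD, n = 2), 32.1 ± 8.10% (SD, n = 4) and 40.6 ± 7.59% (SD, n = 4). Cells with 3 or more of the genes averaged 10.4%, 12.4%, 8.24% and 6.69%. The ranges of the share with no UMI overlapped between all groups: 28.2% to 38.4%, 23.6% to 30.7%, 21.6% to 39.9% and 29.5% to 45.6%.

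Across the 15 mice, the 10 genes did not vary as a single block in CD8 T cells. Nr4a2 and Rgs16 followed each other most closely (Pearson r = 0.90, and 0.84 after removing group means). The 15 mice include B2m-null isotype mouse 1, with Rgs16 at 340 CPM against 86.3 to 104 CPM in its group. The r values without it were not computed. Nr4a3 and Rgs16 had 0.78 and 0.39, and Nr4a1 went with Irf4 (0.76 and 0.75). Nr4a2 and Nfatc1 had 0.64 and 0.82. Egr1 ran against Nr4a2 (-0.52 and -0.70) and against Nfatc1 (-0.53 and -0.80). Nr4a1 and Nr4a2 had 0.04 and -0.10. The genes whose level was most like the mean of the 10 were Lysmd3 (0.80), Pbrm1 (0.77), Hnrnpa0 (0.76), Snhg15 (0.76) and Tnpo1 (0.75). These r values describe 15 mice in 7 pools, which share lanes, depth and groups.

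In CD4 T cells of control tumours, Rgs16 rose 6.44-fold under anti-CD40. It measured 63.9, 18.0, 67.4, 21.8 and 7.41 CPM in the isotype mice and 174 and 254 CPM in the CD40 mice. The groups did not overlap, although the isotype values rest on 23 UMIs in 189 cells against 196 UMIs in 316 cells. The log2 fold change was 2.69 ± 0.53 (adjusted p = 0.0204, edgeR), and between 2.18 and 3.92 over 25 alternatives. It was the only one of the 10 genes to pass, where 1.64% of 6947 genes did and 1.25% were higher, while 5 of the 10 had an unadjusted p under 0.05. The median over the 10 was 0.86 against -0.01 over all genes. With gates of 2 UMIs or at least 50 cells per mouse no control isotype mouse was left, so those alternatives could not be fitted. The call was made in 19 of 25 alternatives and was lost with pools as units (2.85, adjusted p = 0.077) and without control CD40 mouse 2 (2.33, adjusted p = 0.243), control isotype mice 2 or 4, or either control isotype pool.

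Other members in CD4 T cells of control tumours did not pass. Nr4a3 measured 31.9, 26.9, 57.8, 21.8 and 22.2 CPM under isotype and 56.8 and 88.2 CPM under anti-CD40 (1.34, adjusted p = 0.15). Nr4a2 measured 128, 18.0, 57.8, 21.8 and 74.1 CPM under isotype and 135 and 109 CPM under anti-CD40 (1.04, adjusted p = 0.29). Nfatc1 measured 153, 98.8, 28.9, 65.4 and 104 CPM under isotype and 178 and 166 CPM under anti-CD40, without overlap (0.97, adjusted p = 0.26). CD4 T gate cells with over 0.5% myeloid UMIs were 22.2% of the gate in control isotype and 13.0% in control CD40 mice. At the 0.5% limit, which left 4 of the 5 control isotype mice, the Rgs16 change was 3.16 (adjusted p = 0.0211, edgeR). The summed level of regulatory T cell genes in the CD4 T gate was 1402 to 2128 CPM in control isotype and 669 to 774 CPM in control CD40 mice, with Foxp3 at 0 by the gate. The part of cells with these genes in the Rgs16 change was not tested.

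Elsewhere in CD4 T cells no member passed in edgeR. For anti-CD40 in B2m-null tumours, which had 1 isotype and 3 CD40 mice, 0.173% of genes passed and 3 of the 10 had an unadjusted p under 0.05. For genotype under isotype the numbers were 0.0288% and 0. For genotype under anti-CD40 they were 0.288% and 5, with 9 of the 10 below 0, among them Rgs16 (-2.12, adjusted p = 0.11) and Nr4a1 (-1.26, adjusted p = 0.102). For the difference of the CD40 effects they were 0.101% and 3. DESeq2 called 0 in each of these comparisons, and limma-voom called 3 for genotype under anti-CD40 and 0 in the others. At the 0.5% myeloid limit Nr4a1 (-1.59, adjusted p = 0.0453) and Rgs16 (-2.36, adjusted p = 0.0406) passed as lower in B2m-null than in control tumours under anti-CD40, where 0.717% of genes did.

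In regulatory T cells 7 of the 10 genes had enough counts to test, and none passed. No control CD40 mouse reached 20 cells, so only 2 comparisons could be made. For anti-CD40 in B2m-null tumours, with a single CD40 mouse of 31 cells, 0.205% of 4396 genes passed and 1 member had an unadjusted p under 0.05. Nr4a3, Egr2, Egr3 and Irf4 were at 0 counts in that mouse, and Nr4a3 measured 171, 94.0 and 65.6 CPM in the B2m-null isotype mice. For genotype under isotype 0.0% of genes passed and 0 members had an unadjusted p under 0.05. DESeq2 and limma-voom called 0 members in both comparisons.

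In NK cells 9 of the 10 genes could be tested, all but Irf4, and none passed edgeR in any of the 5 comparisons. The background was 1.48% of 6823 genes for anti-CD40 in control tumours, 0.249% for anti-CD40 in B2m-null tumours, 0.0% for genotype under isotype, 0.0733% for genotype under anti-CD40 and 0.235% for the difference of the CD40 effects. Members with an unadjusted p under 0.05 numbered 0, 1, 0, 1 and 1 in that order, and DESeq2 and limma-voom called 0 in each. Nfatc1 had the lowest adjusted p, at 164 and 88.0 CPM in control CD40 mice and 53.9, 43.0, 52.7 and 47.9 CPM in B2m-null CD40 mice, without overlap (-1.36 ± 0.35, adjusted p = 0.125). Rgs16 in NK cells measured 14.8, 52.7 and 13.5 CPM under isotype and 183, 34.4, 75.2 and 54.8 CPM under anti-CD40 in B2m-null tumours, with overlap.

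CD8 T cells had more Nr4a2 and less Nr4a1 than the other T cell gates of the same mouse. Each gate was compared with the CD8 T gate within mice, with the mouse as a block. Nr4a2 was lower in CD4 T than in CD8 T cells in 11 of 11 mice, at 67.1 against 155 CPM (-1.09 ± 0.23, adjusted p = 0.00738). Egr1 was higher in 11 of 11 mice, at 281 against 141 CPM (0.92 ± 0.18, adjusted p = 0.00492). Nr4a1 (0.63 ± 0.15, adjusted p = 0.00576) and Cd69 (0.55 ± 0.13, adjusted p = 0.00791) were each higher in 9 of 11 mice. These 4 passed where 11.7% of genes did, and DESeq2 called 4. Nr4a1 lost its call at the stricter myeloid limits and with thinned cells, Nr4a2 with thinned cells, and Egr1 and Cd69 with at least 50 cells per mouse. Nr4a1 and Cd69 were also lost with gates of 2 UMIs, and Cd69 with at least 10 cells per mouse.

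Regulatory T cells had the lowest Nr4a2. It averaged 39.0 ± 17.4 CPM (SD, n = 9) against 172 ± 64.5 CPM in CD8 T cells of the same 9 mice, and was lower in 9 of 9 (-2.08 ± 0.17, adjusted p = 3.71e-10, edgeR). Rgs16 averaged 37.8 against 168 CPM and was lower in 8 of 9 mice (-2.08 ± 0.23, adjusted p = 7.04e-06). Nr4a1 went the other way, at 91.8 against 51.6 CPM and higher in 8 of 9 mice (0.87 ± 0.17, adjusted p = 0.000575). These 3 passed where 11.5% of genes did.

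In NK cells Irf4, whose induction in T cells follows receptor signal, averaged 2.82 CPM against 18.2 CPM in CD8 T cells and was lower in 14 of 14 mice (-2.23 ± 0.34, adjusted p = 1.29e-05). Its NK level rested on 20 UMIs in 1871 cells, with 7 of the 14 mice at 0 counts. Rgs16 averaged 44.6 against 137 CPM and was lower in 12 of 14 mice (-1.56 ± 0.50, adjusted p = 0.03). Nr4a1 was higher in 11 of 14 mice, at 91.5 against 55.4 CPM (0.76 ± 0.13, adjusted p = 6.46e-05). These 3 passed where 30.4% of genes did. Nr4a1 passed in all 23 alternatives and Irf4 in all 22, whereas Rgs16 passed in 16 of 23, with adjusted p up to 0.064. The fits that lost Rgs16 were those without any 1 of the 5 control isotype mice, without control CD40 mouse 1 and without B2m-null isotype mouse 5.

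The order of the gates differed from gene to gene. The means below are over the usable mice of each gate, so the mix of groups differs between gates. Mean Nr4a1 was 56.0 CPM in CD8 T, 87.1 in CD4 T, 91.8 in regulatory T and 91.5 in NK cells, and the last 3 lay within their spread. Nr4a2 ran from 146 CPM in CD8 T over 121 in NK and 67.1 in CD4 T to 39.0 in regulatory T cells, and the difference between NK and CD8 T cells did not pass (adjusted p = 0.126). Nr4a3 lay at 49.5, 36.8, 65.3 and 47.3 CPM in CD8 T, CD4 T, regulatory T and NK cells, and 0 of the 3 gate comparisons passed for it. Cd69 was at 175, 275, 131 and 172 CPM and Rgs16 at 134, 73.2, 37.8 and 44.6 CPM in the same order. The CD4 T mean of Rgs16 includes the 2 control CD40 mice, in which it was highest. The regulatory T gate had no control CD40 mouse. In these means the order of the CD4 T, regulatory T and NK gates for Rgs16 cannot be told apart from the mix of groups. Against CD8 T cells of the same mice, Rgs16 was lower in 8 of 9 for regulatory T and 12 of 14 for NK cells. For CD4 T cells it was lower in 9 of 11 mice, a difference that did not pass. Egr2 averaged 22.7 to 25.6 CPM in the 4 gates, below the 62.0 CPM of the myeloid comparison gate.

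**Figure D4:**
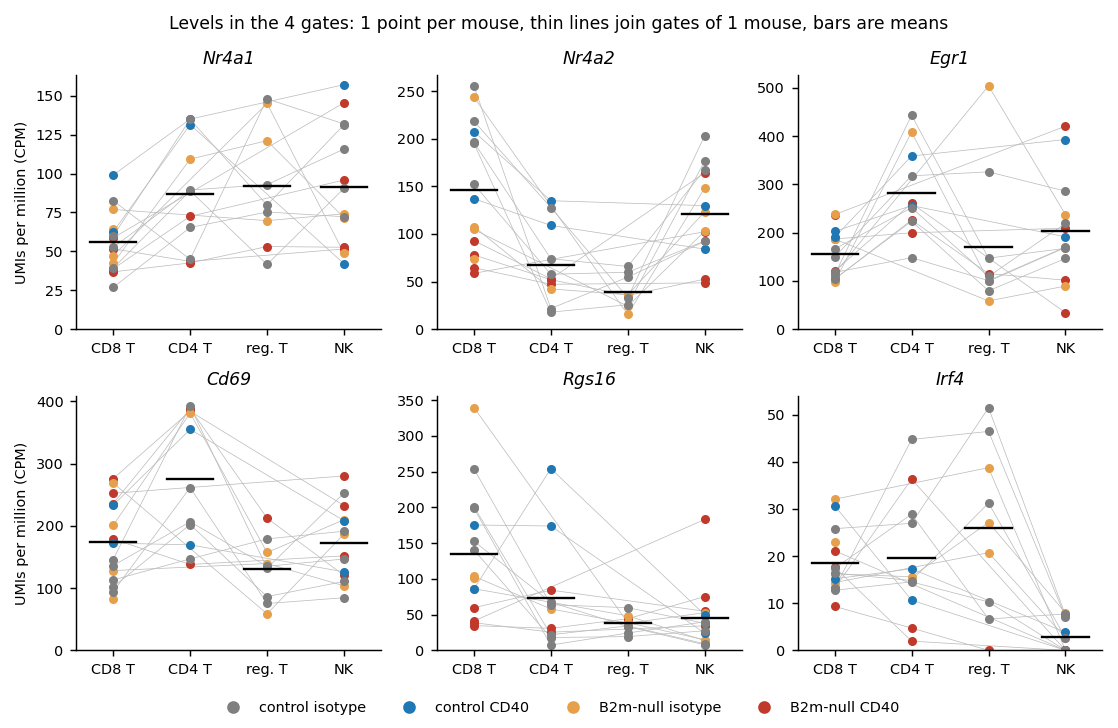
Levels of 6 of the genes in the CD8 T, CD4 T, regulatory T and NK gates, in CPM (vertical axis), with 1 point per mouse coloured by group, thin lines joining the gates of a mouse and bars at the means. Nr4a2 drops from 146 CPM in CD8 T to 39.0 CPM in regulatory T cells, and Irf4 is lowest in NK cells at 2.8 CPM.

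Within CD8 T cells, the genes divided by Pdcd1, which encodes the inhibitory receptor PD-1 and is itself induced by receptor signalling. Cells with a Pdcd1 UMI were set against those without in 13 mice, and 5 of the 10 genes passed where 12.2% of genes did. Rgs16 was higher in Pdcd1-positive cells in 13 of 13 mice, at 159 against 91.3 CPM (0.81 ± 0.21, adjusted p = 0.023). Nr4a2 was higher in 12 of 13, at 166 against 124 CPM (0.42 ± 0.10, adjusted p = 0.00899), and Nr4a3 in 11 of 13, at 54.2 against 41.1 CPM (0.45 ± 0.12, adjusted p = 0.0178). Cd69 was lower in 13 of 13 mice, at 153 against 220 CPM (-0.54 ± 0.09, adjusted p = 0.000901). Egr1 was lower in 12 of 13, at 129 against 175 CPM (-0.42 ± 0.10, adjusted p = 0.0151). Nr4a1 was at 52.7 and 55.6 CPM and did not pass.

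A UMI of any gene is more often seen in a deep cell, so the comparison was repeated with counts thinned to equal depth. Cells were still split by their Pdcd1 UMIs before thinning. The repeat therefore cannot remove the effect of depth on which cells counted as Pdcd1-positive. With cells thinned to equal depth the calls of Nr4a2, Cd69, Egr1 and Rgs16 were kept and that of Nr4a3 was lost. Cd69 and Nr4a2 passed in all 22 alternatives. Egr1 was lost at the stricter myeloid limits and with gates of 2 UMIs. Rgs16 was lost with gates of 2 UMIs and without control CD40 mouse 1 or B2m-null isotype mouse 4, and Nr4a3 also at the stricter myeloid limits, with gates of 2 UMIs and without control CD40 mouse 2. Of 19 genes known to be raised by tissue dissociation, 12 were lower and 1 higher in Pdcd1-positive cells. Fos (-0.54) and Zfp36 (-0.51) were among the lower ones. The median of the list was -0.31 against 0.00 over all genes. Of all 9948 genes, 510 were lower and 705 higher. The part of the dissociation response in the lower Egr1 and Cd69 was not tested.

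**Figure D5:**
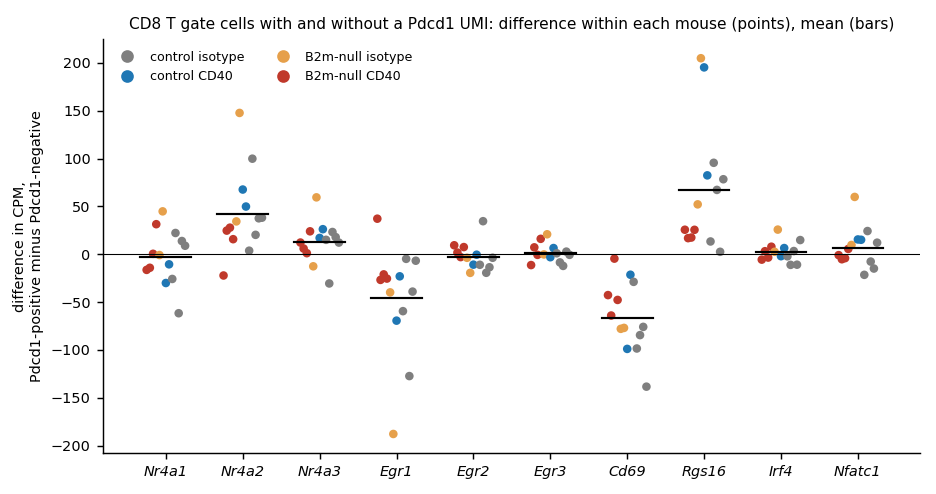
Difference in level between CD8 T gate cells with and without a Pdcd1 UMI in each of 13 mice (points, coloured by group), in CPM, with bars at the mean, for the 10 genes. Rgs16 is above 0 in 13 of 13 mice and Cd69 below 0 in 13 of 13.

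Other genes of the receptor pathway were read from lists beside the 10. Under anti-CD40 in CD8 T cells of control tumours, 963 of all 10852 genes rose and 1192 fell. In B2m-null tumours 394 rose and 262 fell. Of 18 genes of proximal receptor signalling, 6 rose and 0 fell under anti-CD40 in CD8 T cells of control tumours, with a median of 0.49 against -0.01 over all genes. They included the kinases Fyn (1.28 ± 0.18, adjusted p = 0.000266) and Lck (0.66, adjusted p = 0.0322), the adaptor Lat (0.93, adjusted p = 0.00856) and the costimulatory receptor Cd28 (0.94, adjusted p = 0.0139). In B2m-null tumours 7 rose and 0 fell, with a median of 0.57 against 0.00, among them Lat (1.23, adjusted p = 0.00436). Cd3d and Cd3g were also among these 7, but the gate itself reads them. In CD4 T cells none of the 18 passed in either tumour (medians 0.55 and 0.47).

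Of 23 other receptor-induced genes tested, 3 rose and 4 fell in CD8 T cells of control tumours under anti-CD40, with a median of -0.30. The costimulatory receptors Tnfrsf4, or OX40 (-1.88, adjusted p = 0.0069), and Tnfrsf9, or 4-1BB (-1.43, adjusted p = 0.0221), fell, while the cytokine Il2 (1.86, adjusted p = 0.0309) and Tagap (1.09, adjusted p = 0.00396) rose. In B2m-null tumours 2 rose and 0 fell, the phosphatase genes Dusp2 (1.25, adjusted p = 0.0267) and Dusp5 (1.06, adjusted p = 0.0161), which dampen ERK family kinases. In CD4 T cells of control tumours the 1 gene to pass was Ifng, encoding interferon gamma, which rose by 3.59 (adjusted p = 5.34e-06, edgeR). There 1.25% of 6947 genes rose. In B2m-null tumours, with a single isotype mouse, the Ifng change was 3.62. In regulatory T cells of B2m-null tumours the Dusp5 change was 1.61, which rests on a single CD40 mouse. In CD8 T cells of control tumours 963 of all 10852 genes rose and 1192 fell, and in B2m-null tumours 394 rose and 262 fell. Receptor-induced genes, like all genes, moved in both directions in CD8 T cells of control tumours.

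Of 14 genes that brake receptor signalling, 3 rose in CD8 T cells of control tumours, the kinase gene Dgka (1.28, adjusted p = 0.0214), the phosphatase gene Ptpn22 (0.69, adjusted p = 0.0371) and the adaptor Sla (0.66, adjusted p = 0.0124). In B2m-null tumours 1 rose, Sla (0.63, adjusted p = 0.0342, edgeR). Among all 10852 genes in CD8 T cells, 963 rose and 1192 fell in control tumours. In B2m-null tumours 394 of them rose and 262 fell. Rgs1, a relative of Rgs16, rose in NK cells of control tumours (1.03, adjusted p = 0.00903) and of B2m-null tumours (0.97, adjusted p = 0.0393). Of 12 genes of the NFAT family and its partners, 5 rose and 0 fell in CD8 T cells of control tumours, among them Nfatc3 (0.90, adjusted p = 0.00325), Nfatc2 (0.69, adjusted p = 0.0224) and the calcineurin subunit Ppp3ca (0.77, adjusted p = 0.000546). In B2m-null tumours 0 rose and 1 fell, Nfat5 (-0.62, adjusted p = 0.0258). The difference between the tumours passed for Ppp3ca (-0.61, adjusted p = 0.0495).

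Of 9 quiescence and recirculation genes, which activated T cells lower, 4 rose and 1 fell in CD8 T cells of control tumours under anti-CD40. Over all 10852 genes, 963 rose and 1192 fell there, and 394 rose and 262 fell in B2m-null tumours. S1pr1, the egress receptor that the CD69 protein antagonises, rose by 2.49 (adjusted p = 0.00119), and its activator Klf2 by 1.59 (adjusted p = 0.00624), while the lymph node homing receptor Ccr7 fell by 2.23 (adjusted p = 0.00119). In B2m-null tumours Foxo1 rose (0.83, adjusted p = 0.0464) and Ccr7 fell by 2.91 (adjusted p = 0.000529). The mature dendritic cell also carries Ccr7, and the summed dendritic cell genes in the CD8 T gate were 80 to 109 CPM in control isotype, 15 to 25 CPM in control CD40, 120 to 212 CPM in B2m-null isotype and 10 to 41 CPM in B2m-null CD40 mice. The part of these cells in the lower Ccr7 was not tested. Of 9 such genes, 6 were lower in Pdcd1-positive CD8 T cells, among them Tcf7 (-1.41), where 510 of all 9948 genes were lower.

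Genes raised by dissociation are read beside the 10 because immediate-early genes such as Egr1 and Nr4a1 respond to handling as well as to the receptor. Their summed level in the CD8 T gate was 5653 to 7669 CPM in control isotype, 7091 to 7404 CPM in control CD40, 6467 to 9031 CPM in B2m-null isotype and 5855 to 7457 CPM in B2m-null CD40 mice, so the ranges of all groups overlapped. Of the 19 genes, 4 rose and 0 fell under anti-CD40 in control tumours. Among them were Dnajb1 (0.83, adjusted p = 0.00852, edgeR) and Junb (0.81, adjusted p = 0.00548). In B2m-null tumours 1 rose, Ier2 (0.59, adjusted p = 0.0467). Over all 10852 genes, 963 rose in control tumours and 394 in B2m-null tumours. Against CD8 T cells of the same mice, 8 of the 19 were higher and 2 lower in CD4 T cells. In regulatory T cells 4 were higher and 0 lower, and in NK cells 12 were higher and 3 lower. Nr4a1 was also higher in these gates. Over all genes, 11.7%, 11.5% and 30.4% passed in either direction, in the same order. The part of handling in the differences of Egr1 and Nr4a1 was not tested.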

How the data were processed

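Single-cell RNA was captured with the 10x 3′ v3 chemistry with hashtag antibodies, per the labels' protocols. Cell Ranger 3.0.0, bcl2fastq 2.20.0.422 and the mm10 genome are named in the submitters' processing notes. The authors deposited raw UMI counts per gene and barcode, with no normalization, in 1 matrix per lane, together with hashtag counts.

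Cells needed at least 200 genes and at most 10% mitochondrial UMIs. Hashtags were called in Python 3.11.15 with a Gaussian mixture (scikit-learn 1.9.0, posterior 0.9, at least 20 hashtag counts, and a doublet above 2.5 SD of background). Counts were summed per mouse and gate and scaled by TMM. Groups were compared in edgeR 4.0.16 (R 4.3.3) with the quasi-likelihood test over all genes kept by its low-count filter and Benjamini-Hochberg adjustment, in 1 fit per gate. Gates were compared with the mouse as a block. A call is an adjusted p under 0.05. Fold changes are from these fits. DESeq2 1.42.0 and limma 3.58.1 (voom, pool as random block) were alternatives. So were RLE scaling, no low-count filter, gates of 2 UMIs, a 1% myeloid limit, cells thinned to 1500 UMIs, at least 50 cells per mouse, each pool as 1 unit, the replicate number as a block, and leaving out each mouse and each pool. The edgeR fit of the CD8 T gate, read for anti-CD40 in B2m-null tumours, and the hashtag calls were tested on simulated data. Simulated mice were independent, so the spread common to a pool was not covered.

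All 10 genes were measured in all 4 gates, although not every level is printed. Of each pathway list, up to 4 called genes with the largest change were taken. The members, the lists and the tests were chosen with earlier results of these data known. The limit of 0.5% on myeloid UMIs and the minimum of 10 cells per mouse were added after the data had been seen. Cells without a hashtag call were left out. Promoter windows were those of RefSeq (GRCm38.p6): 6 of the 10 genes had a printable entry, in 10 windows. Errors in CPM are SDs over mice. The depth of the CD8 T and myeloid gates is given with their values. Median UMIs per cell by group ran from 1634.5 to 3774 in the CD4 T gate. They ran from 1581 to 5320.5 in the regulatory T gate and from 1262 to 2196 in the NK gate. Genes with few UMIs, such as Egr3 and Irf4, are the least precise.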

Additional observations from a re-analysis of the deposited data

Results flagged for a closer look

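In 8 of 69 groups of 4 or 5 mice, 1 mouse lay far from the others of its group in the level of a member. Chance gives about 1 in 20 for independent values with a normal spread. The 69 groups share mice, control isotype mouse 3 recurs below, and some values rest on few UMIs. Whether there were more than by chance therefore cannot be judged. In the CD8 T gate, Rgs16 measured 340 CPM in B2m-null isotype mouse 1 (53 UMIs in 44 cells) and 86.3 to 104 CPM in the other mice of the group. In the CD4 T gate, control isotype mouse 3, with 24 cells, was high for 3 genes. Its Nr4a3 was 57.8 CPM (6 UMIs) against 21.8 to 31.9 CPM. Its Egr2 was 67.4 CPM (7 UMIs) against 0 to 19.2 CPM, and its Egr3 was 86.6 CPM (9 UMIs) against 7.26 to 25.6 CPM. In the regulatory T gate, Nr4a3 was 125 CPM in control isotype mouse 5 (36 UMIs in 53 cells) against 20.5 to 46.5 CPM. Egr1 there was 326 CPM in control isotype mouse 3 (49 UMIs in 29 cells) against 79.6 to 147 CPM. In the NK gate, Nr4a3 was 109 CPM in control isotype mouse 1 (46 UMIs in 234 cells) against 43.8 to 52.3 CPM. Egr2 there was 51.5 CPM in control isotype mouse 3 (20 UMIs in 108 cells) against 14.2 to 24.9 CPM. Of 29 tests of whether the anti-CD40 effect on a member differed between tumour genotypes, 0 passed in edgeR.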

How the results depend on the processing

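The counts below are members called. No result that passed at the main settings changed direction in an alternative. In CD8 T cells 2 results that passed in only 1 alternative did change sign in others. These were Egr1 for anti-CD40 in B2m-null tumours and Cd69 for genotype under isotype. In CD8 T cells, anti-CD40 in control tumours gave 0, and 1 with DESeq2, thinned cells or at least 50 cells per mouse. It gave 3 with no low-count filter, gates of 2 UMIs or myeloid limits of 1% or 0.5%, and 0 to 1 when a mouse or pool was left out. Anti-CD40 in B2m-null tumours gave 2, but 4 with no filter and 1 with limma-voom. It gave 0 with pools as units, thinned cells or at least 50 cells, and 0 to 2 with a mouse or pool left out. With gates of 2 UMIs the count stayed at 2, but 1 was higher and 1 lower. Rgs16 was lost there and Egr1 was called as higher. Genotype under isotype gave 0, and 2 with no filter. Genotype under anti-CD40 gave 0, but 1 with RLE scaling or gates of 2 UMIs, 4 with no filter, 2 with DESeq2, limma-voom, thinned cells, at least 50 cells or either stricter myeloid limit, and 0 to 2 with a mouse or pool left out. The difference of the CD40 effects gave 0, and 2 with no filter.

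In CD4 T cells, anti-CD40 in control tumours gave 1, but 2 with no filter or the 1% limit, 0 with pools as units, and 0 to 1 with a mouse or pool left out. Genotype under anti-CD40 gave 0, but 3 with no filter or limma-voom, 2 with gates of 2 UMIs, thinned cells or either stricter myeloid limit, and 0 to 1 with a mouse or pool left out. The difference of effects gave 0, and 1 with no filter or thinned cells. With no filter, anti-CD40 in B2m-null tumours in regulatory T cells gave 1 in place of 0, and so did genotype under anti-CD40 in NK cells. Within mice, CD4 against CD8 T cells gave 4 (2 with thinned cells, 4 to 4 with a mouse left out), regulatory against CD8 T cells 3 (5 with no filter, 3 to 4) and NK against CD8 T cells 3 (2 to 5). The Pdcd1 comparison gave 5 (2 with gates of 2 UMIs, 3 with either stricter myeloid limit, 4 to 5 with a mouse left out). The other alternatives that could be fitted kept their counts within 1.5 times. In the CD4 T gate, gates of 2 UMIs or at least 50 cells per mouse left no control isotype mouse. Comparisons with that group could not be fitted there. The causes were not tested.

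Genes called over the whole table ranged more widely, from 2 to 2890 around 2155 for anti-CD40 in control tumours, from 1 to 1894 around 656 in B2m-null tumours, from 0 to 520 around 8 for genotype under isotype, from 0 to 761 around 238 for genotype under anti-CD40 and from 0 to 1063 around 512 for the difference, all in CD8 T cells. Pools as units gave the lowest number in 4 of these 5. In CD4 T cells the ranges were 10 to 259 around 114, 6 to 137 around 12, 0 to 12 around 2, 1 to 136 around 20 and 0 to 21 around 7 in the same order. In regulatory T cells they were 3 to 94 around 9 and 0 to 38 around 0, and in NK cells 11 to 279 around 101, 3 to 95 around 17, 0 to 7 around 0, 0 to 54 around 5 and 0 to 53 around 16. Within mice they were 601 to 1280 around 1136, 504 to 1199 around 855, 1112 to 2897 around 2669 and 344 to 1378 around 1215.

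Pool numbers were not taken to pair the groups. Deviations of same-numbered pools correlated at 0.38, 0.19 and 0.04 in the CD8 T gate, and at 0.23, 0.15 and -0.08 in the CD4 T gate. The regulatory T gate gave 0.11, 0.05 and -0.02, and the NK gate -0.16, 0.26 and -0.32. With the replicate number as a block, 3 members passed in the CD8 T gate for anti-CD40 in B2m-null tumours, Egr2 (-1.25) being added, and 0 in the other comparisons that could be fitted. Genes called under the block numbered 1192 in place of 656 there. No block could be fitted with control CD40, which was 1 pool. In regulatory T cells, comparisons with control CD40 were made only with pools as units or at least 10 cells per mouse and gave 0 members. With lone mice in a group, the spread of the other groups is assumed for them.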
